A study of Mus musculus with 2 samples.

Results

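The core of Polycomb repressive complex 2 (PRC2) was followed through 6 genes, Eed, Ezh1, Ezh2, Suz12, Rbbp4 and Rbbp7, taken by symbol from the 32285 genes of the count matrices, each of which had 1 row. Their transcripts were counted in single cells from skin tumours of 5-month-old mice, across the cell types found in the tumours and in cells with and without transcripts of the proliferation gene Mki67. The Eed iKO-D library came from mice with Eed flox/flox and K14CrERT2, a Cre recombinase that the keratin 14 promoter drives in skin epithelium and that tamoxifen activates. They received hydroxyl-tamoxifen on the skin once a day for 4 days from postnatal day 50, and the carcinogen DMBA weekly for up to 20 weeks. Mice of the Ctrl-D library carried Eed flox/flox, were given ethanol in place of tamoxifen, and had DMBA on the same schedule. Eed was thus floxed in both groups, both received DMBA, and Cre and tamoxifen differed together. Each group had 1 library, the number of animals behind a library is not given in the sources used here, and no difference between the libraries has a replicate check. No p-value was computed, and all intervals are 95% intervals of counting error alone.

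PRC2 places methyl groups on lysine residues of histone H3 and so marks genes for repression. EZH2 and EZH1 are its alternative catalytic subunits, SUZ12 is the scaffold that holds the complex together, and EED binds the mark that the complex has made and stimulates the enzyme. RBBP4 and RBBP7 are near-identical histone-binding proteins that also serve in other chromatin complexes. In mouse skin, Ezh2 is known as a gene of dividing basal cells of the epidermis, whereas Ezh1 is also expressed in cells that have left the cycle.

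The genes lie on 5 chromosomes of the GRCm38 build (GENCODE vM21). Eed lies at chr7:89954654-89980983 on the minus strand, Ezh1 at chr11:101191115-101226463 on the minus strand, and Ezh2 at chr6:47530139-47595341 on the minus strand. Suz12 lies at chr11:79993106-80034123 on the plus strand, Rbbp4 at chr4:129307100-129335370 on the minus strand, and Rbbp7 at chrX:162760402-162779092 on the plus strand. Rbbp4 and Rbbp7 resemble each other, which can make their counts less certain. Each overlaps a protein-coding gene on the other strand, Sync and Txlng, while Eed overlaps the annotated gene Gm45120 on its own strand. The effect of resemblance and overlap on the counts was not tested. Ezh1 overlapped no other annotated gene. The promoters of 4 members are shown because E2F factors, the regulators of genes used for DNA replication, recognise short motifs that differed among them. Each stretch covers the 250 bases before the start site and the first 15 bases of the transcript, 5′ to 3′ on the gene's own strand, from RefSeq on GRCm38.p6. Ezh2 is the window chr6:47595016-47595280 (minus strand), Rbbp4 chr4:129335356-129335620 (minus), Suz12 chr11:79992856-79993120 (plus) and Ezh1 chr11:101226449-101226713 (minus). All of the Ezh2 window lies inside the GENCODE locus given above, because the RefSeq start site used here lies downstream of the GENCODE one. Capitals mark the motifs TTGGCGC and TTCCCGC, searched on both strands.
Ezh2: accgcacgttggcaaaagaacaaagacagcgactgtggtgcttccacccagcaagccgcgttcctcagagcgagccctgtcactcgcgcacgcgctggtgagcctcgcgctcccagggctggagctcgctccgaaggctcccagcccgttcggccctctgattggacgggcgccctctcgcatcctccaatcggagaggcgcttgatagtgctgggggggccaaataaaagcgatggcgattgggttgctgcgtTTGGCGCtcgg
Rbbp4: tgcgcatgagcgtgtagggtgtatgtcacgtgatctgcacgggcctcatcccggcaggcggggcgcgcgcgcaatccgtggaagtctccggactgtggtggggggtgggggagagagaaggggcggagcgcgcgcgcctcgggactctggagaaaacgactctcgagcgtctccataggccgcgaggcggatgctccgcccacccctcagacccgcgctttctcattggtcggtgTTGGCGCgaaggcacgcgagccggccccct
Suz12: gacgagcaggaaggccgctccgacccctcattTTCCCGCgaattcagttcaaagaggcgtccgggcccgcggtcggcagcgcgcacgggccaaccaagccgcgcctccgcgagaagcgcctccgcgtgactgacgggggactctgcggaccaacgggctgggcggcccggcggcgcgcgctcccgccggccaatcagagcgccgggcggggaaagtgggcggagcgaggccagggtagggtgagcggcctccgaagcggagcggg
Ezh1: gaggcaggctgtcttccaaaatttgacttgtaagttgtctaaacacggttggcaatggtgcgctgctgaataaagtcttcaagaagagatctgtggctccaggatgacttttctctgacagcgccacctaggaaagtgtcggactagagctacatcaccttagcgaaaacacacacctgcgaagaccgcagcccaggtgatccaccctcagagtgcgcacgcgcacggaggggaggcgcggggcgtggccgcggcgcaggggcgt
The TTGGCGC match of Ezh2 began 4 bases past the start site and that of Rbbp4 began 15 bases before it, while the TTCCCGC match of Suz12 began 218 bases before it. Over windows of 300 bases, which reach 50 bases into the transcript, either motif was present in 3 of the 6 members and in 6.81% of 32851 promoters (TTGGCGC alone in 2.45%, TTCCCGC alone in 4.60%). Eed, Ezh1 and Rbbp7 held neither in that window. The CCAAT box was present in 5 of 6 members, all but Ezh1, and in 37.4% of promoters, and TTTGAA was present in 2 of 6 (Eed and Suz12) and in 17.9%. No match overlapped another, and a match of letters is a description of the window, not a binding site.

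The matrices held 22259 barcodes with 289511009 unique molecular identifiers (UMIs, each standing for 1 captured transcript) in Eed iKO-D and 8039 barcodes with 120500892 UMIs in Ctrl-D, and 49 barcodes occurred in both. In Eed iKO-D, 11978 barcodes had over 30% of their UMIs in a single gene, Gm42418, at a median of 2323 UMIs, against 4 barcodes in Ctrl-D. These were left out. After the filters, 9506 cells with a median of 17458 UMIs remained in Eed iKO-D and 7394 with a median of 13055.5 in Ctrl-D. The labels call both samples epidermal cancer cells, but only 3873 of the Eed iKO-D cells and 4920 of the Ctrl-D cells passed the gate for epithelial-like cells, which was based on keratins such as Krt14 and Krt5. Eed iKO-D also held 2180 fibroblast-like, 847 macrophage or monocyte-like, 592 neutrophil-like, 253 blood endothelial-like, 207 pericyte or smooth muscle-like and 89 T cell-like cells. Ctrl-D held 422 T cell-like, 342 hair matrix-like, 249 fibroblast-like, 240 melanocyte-like and 126 neutrophil-like cells. A gate is a range of marker share and not a type, and 11.8% of epithelial-like cells in Eed iKO-D and 11.2% in Ctrl-D lay within 1.5 times of its limit. Keratin transcripts were counted in the other classes too. Whether they came from free RNA, from doublets or from the gate, which allows up to 1% of UMIs in the epithelial list, was not tested. The summed Krt14 and Krt5 level was between 3.96% and 16.3% of the epithelial-like level in the other classes of Eed iKO-D, and between 1.06% and 5.33% in those of Ctrl-D, highest in neutrophil-like cells of both libraries.

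All 6 members had UMIs in every class. T cell-like cells carried the highest level of each member in Eed iKO-D, with an interval apart from that of the next class for all but Rbbp4 and Rbbp7. These 89 cells had a median of 0.465% of UMIs in the epithelial list and 0.284% in their own. In T cell-like cells of Ctrl-D the medians were 0.0706% and 0.589%. Of the Eed iKO-D cells, 13.5% lay near the gate's limit, and their Krt14 and Krt5 level was 10.5% of the epithelial-like level. The part of this in their levels was not tested. Hair matrix-like cells carried the highest level of Ezh2, Suz12, Rbbp4 and Rbbp7 in Ctrl-D, apart from the next class for Ezh2 only. Levels are the summed UMIs of a gene, scaled to 1000000 UMIs of the class (CPM). They are compared between classes for 1 gene at a time, since capture at the 3' end differs between genes. Free RNA was not subtracted from these levels. Its part in the low values of neutrophil-like cells, where the keratin share was highest (16.3% in Eed iKO-D and 5.33% in Ctrl-D), was not tested. Within a library, the highest class exceeded the lowest by 2.46-fold (Rbbp4) to 4.77-fold (Ezh1) in Eed iKO-D, and by 2.99-fold (Rbbp4) to 28.4-fold (Rbbp7, where the lowest value rests on 1 UMI) in Ctrl-D.

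Ezh2, the catalytic subunit of dividing cells, stood at 110.7 CPM (88.5 to 137) in T cell-like cells of Eed iKO-D, apart from all other classes. Blood endothelial-like (66.1), pericyte or smooth muscle-like (65.5) and epithelial-like cells (57.8 CPM) followed and each overlapped its neighbour in this order. Fibroblast-like (33.8), macrophage or monocyte-like (31.0) and neutrophil-like cells (26.7 CPM) formed a lower group whose neighbours overlapped. In Ctrl-D, hair matrix-like cells stood at 201 CPM (189 to 214), with an interval above those of all other classes. T cell-like (95.4), epithelial-like (83.6) and melanocyte-like cells (81.5 CPM) overlapped with their neighbours. Fibroblast-like (24.4) and neutrophil-like cells (23.0 CPM, 4 UMIs) were lowest. Hair matrix-like cells are named from keratins of the hair root such as Krt25 and Krt71, and 17.5% of them lay near the gate's limit.

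Ezh1, the catalytic subunit found also outside the cycle, ordered the classes differently. In Eed iKO-D it was 34.8 CPM in T cell-like cells, 18.1 in blood endothelial-like, 14.4 in neutrophil-like, 11.7 in epithelial-like, 9.81 in pericyte or smooth muscle-like, 9.34 in fibroblast-like and 7.29 in macrophage or monocyte-like cells. Past the T cell-like cells no neighbours were separated. In Ctrl-D it was 40.3 CPM in neutrophil-like (7 UMIs), 35.4 in melanocyte-like, 31.0 in T cell-like, 15.4 in fibroblast-like, 12.9 in hair matrix-like and 10.7 CPM in epithelial-like cells. The first 3 of these overlapped, and T cell-like cells were separated from fibroblast-like cells. Epithelial-like cells were thus the lowest class for Ezh1 in Ctrl-D, while they held the third place for Ezh2.

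Eed, the subunit that reads the mark, was 102 CPM in T cell-like cells of Eed iKO-D (80.5 to 127), above the 46.9 in blood endothelial-like, 45.8 in epithelial-like, 41.5 in pericyte or smooth muscle-like, 33.5 in macrophage or monocyte-like, 25.6 in neutrophil-like and 22.2 CPM in fibroblast-like cells. In Ctrl-D it was 107 CPM in T cell-like cells and 81.7 in hair matrix-like cells, both separated from the class after them. Epithelial-like (53.2), melanocyte-like (48.4), neutrophil-like (46.1 CPM, 8 UMIs) and fibroblast-like cells (24.9 CPM) followed. T cell-like and fibroblast-like cells thus held the ends of the order in both libraries.

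Suz12, the scaffold, was 152 CPM in T cell-like cells of Eed iKO-D, 115 in epithelial-like, 97.2 in blood endothelial-like, 89.4 in neutrophil-like, 85.1 in pericyte or smooth muscle-like, 65.0 in macrophage or monocyte-like and 48.5 in fibroblast-like cells. T cell-like and epithelial-like cells were each separated from the class after them. Suz12 in Ctrl-D was 167 CPM in hair matrix-like, 139.6 in T cell-like, 77.8 in melanocyte-like, 66.7 in epithelial-like, 63.3 in neutrophil-like (11 UMIs) and 36.4 in fibroblast-like cells. The first pair overlapped and stood apart from the rest.

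Of the histone-binding members, Rbbp4 varied least among the classes of the 6 members in both libraries, while Rbbp7 varied by 4.64-fold in Eed iKO-D. Both stood high in pericyte or smooth muscle-like cells of Eed iKO-D and in melanocyte-like cells of Ctrl-D. Rbbp4 was 130.0 CPM in T cell-like and 112 in pericyte or smooth muscle-like cells of Eed iKO-D, and between 52.8 (neutrophil-like) and 95.7 CPM (blood endothelial-like) in the others. In Ctrl-D it was 155 CPM in hair matrix-like, 127 in T cell-like and 102 in melanocyte-like cells, and 75.4 in epithelial-like, 72.0 in fibroblast-like and 51.8 CPM in neutrophil-like cells. Rbbp7 was 125 CPM in T cell-like and 124 in pericyte or smooth muscle-like cells of Eed iKO-D, 95 in epithelial-like, 91.0 in blood endothelial-like, 80.6 in fibroblast-like, 43.3 in macrophage or monocyte-like and 26.9 in neutrophil-like cells. In Ctrl-D it was 164 CPM in hair matrix-like, 146 in melanocyte-like, 93.8 in epithelial-like, 92.1 in fibroblast-like and 78.1 in T cell-like cells. Neutrophil-like cells of Ctrl-D held 1 Rbbp7 UMI (5.76 CPM, 0.146 to 32.1), which is too few for a rank. Rbbp7 in T cell-like cells was therefore at the top in Eed iKO-D, level with pericyte or smooth muscle-like cells, and next to last in Ctrl-D. In Ctrl-D its interval reached 92.4 CPM.

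**Figure D1:**
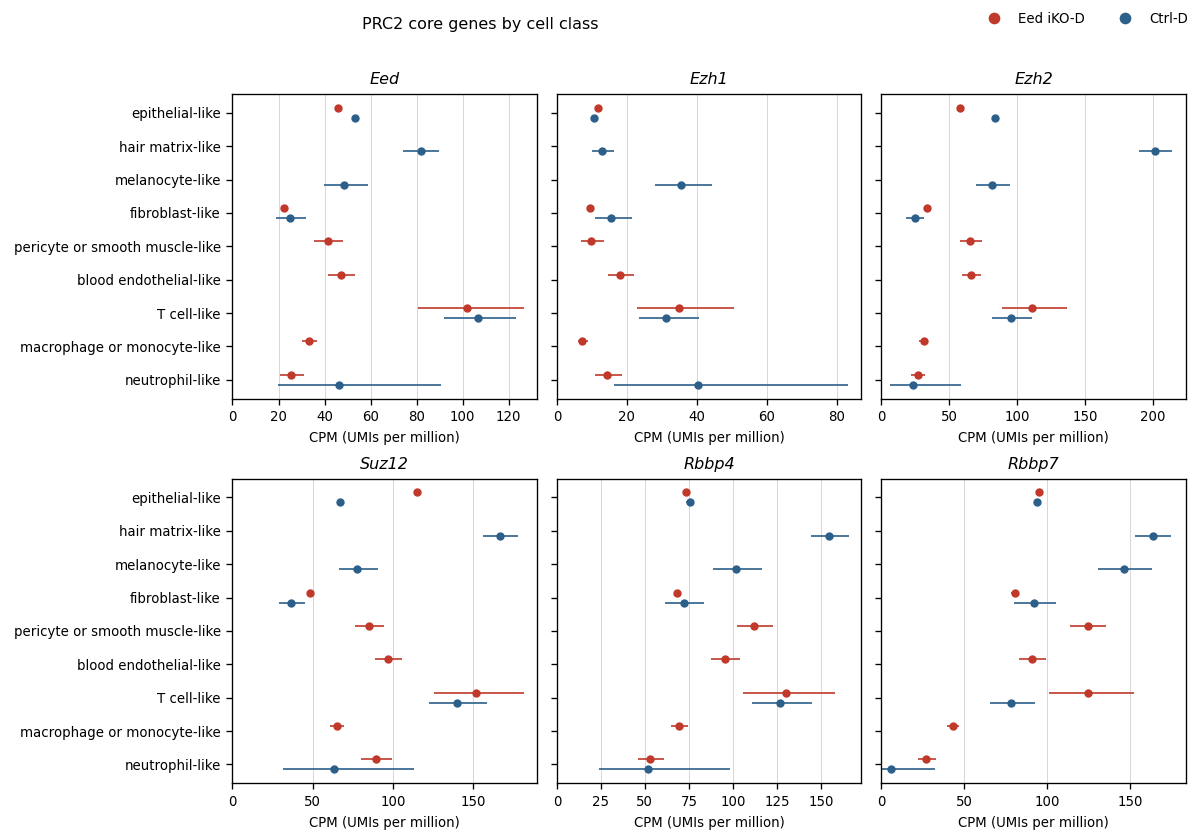
Level of each PRC2 core gene (CPM, linear axis) in each cell class, with points for Eed iKO-D and Ctrl-D and bars for the 95% counting interval. T cell-like cells are highest in Eed iKO-D, though they overlap pericyte or smooth muscle-like cells for Rbbp4 and Rbbp7. Hair matrix-like cells lead for Ezh2 in Ctrl-D at 201 CPM, and the wide bars of Ctrl-D neutrophil-like cells rest on 1 to 11 UMIs.

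Within the epithelium, Ezh2, Rbbp4 and Eed were at least 1.5-fold lower in spinous-like cells, the differentiating layer marked by Krt10 and Krt1, than in basal-like cells of both libraries. Ezh2 was 24.5 CPM in 120 spinous-like cells and 59.4 CPM in 3336 basal-like cells of Eed iKO-D, a ratio of 0.412 (0.345 to 0.488). Ctrl-D had 37.3 CPM in 643 spinous-like cells and 90.2 CPM in 3589 basal-like cells, a ratio of 0.414 (0.379 to 0.452). The intervals of both layers lay apart in each library.

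A member was called where the 2 values differed at least 1.5-fold. In Eed iKO-D, 3 of 6 members were called lower in spinous-like cells (Eed, Ezh2 and Rbbp4), beside 44.2% of all genes tested, and 0 of 6 were called higher, beside 12.5%. In Ctrl-D, 5 of 6 were called lower, all but Ezh1, beside 37.9% of all genes, and 0 of 6 higher, beside 9.72%. All genes were shifted toward basal-like cells, with a median log2 ratio of -0.46 in Eed iKO-D and -0.37 in Ctrl-D. Relative to this shift Ezh2 was at -0.81 and -0.90, Rbbp4 at -0.69 and -0.62, and Eed at -0.42 and -0.63, in Eed iKO-D and Ctrl-D in that order, while Suz12 and Rbbp7 in Eed iKO-D lay within 0.01 of it, so that Eed in Eed iKO-D and Suz12 and Rbbp7 in Ctrl-D were no longer called. Ezh1 was 11.2 CPM in spinous-like and 11.5 CPM in basal-like cells of Eed iKO-D (ratio 0.967, 0.738 to 1.247), and 9.38 and 10.3 CPM in those of Ctrl-D (ratio 0.908, 0.751 to 1.09). Among Mki67-zero cells alone, Ezh2 was still 17.7 CPM in spinous-like and 38.6 CPM in basal-like cells of Eed iKO-D (ratio 0.459, 0.353 to 0.589), and 30.8 and 64.2 CPM in those of Ctrl-D (ratio 0.481, 0.426 to 0.540).

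Hair matrix-like cells exceeded epithelial-like cells of the same library, Ctrl-D, in 5 of 6 members, all but Ezh1, beside 33.9% of all genes called higher. None of the 6 was called lower, beside 24.7%. Suz12 was 167 CPM in hair matrix-like and 66.7 CPM in epithelial-like cells, a ratio of 2.50 (2.33 to 2.68), and Ezh2 was 201 and 83.6 CPM, a ratio of 2.41 (2.26 to 2.57). Ezh1 was 12.9 and 10.7 CPM, a ratio of 1.21 (0.933 to 1.54). Relative to the median of all genes, which lay 0.22 higher on the log2 scale, Eed (0.40) and Rbbp7 (0.58) were no longer called. Mki67-positive cells made up 72.8% of hair matrix-like and 40.4% of epithelial-like cells, or 44.6% and 20.7% after every cell was thinned to 3000 UMIs. Within Mki67-zero cells Ezh2 was 114 CPM in hair matrix-like and 56.4 CPM in epithelial-like cells, a ratio of 2.02 (1.67 to 2.42), and within Mki67-positive cells it was 223 and 109 CPM, a ratio of 2.05 (1.91 to 2.19). The difference was thus of like size in both parts.

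Ezh2 was at least 1.5-fold higher in Mki67-positive than in Mki67-zero cells in 7 of the 8 pairs of class and library that held at least 50 cells of each kind, and Ezh1 in 0 of 8. A cell with at least 1 Mki67 UMI was counted as Mki67-positive, which is no call of a cycle phase. In epithelial-like cells of Eed iKO-D, Ezh2 was 68.4 CPM in 1952 Mki67-positive and 37.6 CPM in 1921 Mki67-zero cells, a ratio of 1.82 (1.73 to 1.91). In epithelial-like cells of Ctrl-D it was 109 CPM in 1987 Mki67-positive and 56.4 CPM in 2933 Mki67-zero cells, a ratio of 1.94 (1.85 to 2.03). In both libraries the intervals of the Mki67-positive and Mki67-zero cells lay far apart.

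Among the other classes the Ezh2 ratio was 1.98 (1.81 to 2.17) in fibroblast-like, 2.33 (1.85 to 2.94) in blood endothelial-like and 2.46 (1.88 to 3.26) in pericyte or smooth muscle-like cells of Eed iKO-D, and 1.96 (1.63 to 2.39) in hair matrix-like cells of Ctrl-D. In neutrophil-like cells of Eed iKO-D it was 2.98 (1.98 to 4.49), on 50 UMIs in 114 Mki67-positive and 52 UMIs in 478 Mki67-zero cells. Macrophage or monocyte-like cells were the exception, with 35.0 CPM in Mki67-positive and 27 CPM in Mki67-zero cells, a ratio of 1.29 (1.06 to 1.59). With cells thinned to 3000 UMIs that class had a log2 ratio of -0.09. Top2a, a gene of the G2 phase and mitosis, had no UMI in 67.8% of the Mki67-positive macrophage or monocyte-like cells and 71.1% of the Mki67-positive neutrophil-like cells, against 22.6% of the Mki67-positive epithelial-like cells of Eed iKO-D. With the split made by Top2a in place of Mki67, the macrophage or monocyte-like log2 ratio of Ezh2 was 0.95 and the call held in 8 of 8 pairs. Epithelial marker genes were not raised in Mki67-positive cells of the other split classes (for example 0.513% of UMIs in Mki67-positive against 0.626% in Mki67-zero neutrophil-like cells).

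Suz12 was called higher in 4 of 8 pairs, at 1.61 in fibroblast-like, 1.76 in blood endothelial-like and 1.69 in pericyte or smooth muscle-like cells of Eed iKO-D and 1.60 (1.52 to 1.68) in epithelial-like cells of Ctrl-D. Epithelial-like cells of Eed iKO-D had 126 CPM in Mki67-positive and 94.0 CPM in Mki67-zero cells, a ratio of 1.34 (1.30 to 1.39). Rbbp7 was called in 4 of 8 pairs, at 1.53 in epithelial-like and 1.59 in blood endothelial-like cells of Eed iKO-D and at 1.66 in epithelial-like and 1.56 in hair matrix-like cells of Ctrl-D. Rbbp4 was called in 2 of 8, at 1.68 in blood endothelial-like cells of Eed iKO-D and 1.52 in epithelial-like cells of Ctrl-D. Epithelial-like cells of Eed iKO-D lay just below the limit for Rbbp4, at 1.48 (1.41 to 1.54).

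Eed was called in 0 of 8 pairs, with a highest ratio of 1.41 (1.33 to 1.5) in epithelial-like cells of Ctrl-D, at 62.0 CPM in Mki67-positive and 43.9 CPM in Mki67-zero cells. With cells thinned to 3000 UMIs Eed was called in 3 of 8, each with an interval that included 1. These were fibroblast-like (1.59, 0.896 to 2.67) and blood endothelial-like cells (1.66, 0.583 to 4.22) of Eed iKO-D and hair matrix-like cells of Ctrl-D (1.55, 0.981 to 2.45). Ezh1 was lower in Mki67-positive epithelial-like cells of both libraries, by less than 1.5-fold. It was 10.8 CPM in Mki67-positive and 13.4 CPM in Mki67-zero cells of Eed iKO-D, a ratio of 0.803 (0.728 to 0.887), and 9.25 and 12.1 CPM in those of Ctrl-D, a ratio of 0.762 (0.672 to 0.865). Of the 8 pairs, hair matrix-like cells gave the only called fall, at 0.665, whose interval of 0.385 to 1.19 rests on 50 and 19 UMIs and includes 1, and which was not called without doublet removal. Blood endothelial-like cells of Eed iKO-D went the other way, with 58 Ezh1 UMIs in Mki67-positive and 41 in Mki67-zero cells. With cells thinned to 3000 UMIs their ratio was 1.80 (0.404 to 6.44), on 4 and 9 UMIs. Among the layers, spinous-like cells of Ctrl-D had 6.18 CPM of Ezh1 in Mki67-positive (24 UMIs) and 10.5 CPM in Mki67-zero cells (114 UMIs), a ratio of 0.587 (0.361 to 0.918), and it was the 1 of 6 members called lower there, beside 9.9% of all genes. Ezh2 (1.80), Suz12 (1.67) and Rbbp7 (1.56) were the 3 of 6 called higher in these spinous-like cells, beside 15.2%.

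The counts per class stood as follows beside all genes. In Eed iKO-D, 2 of 6 members were called higher in Mki67-positive epithelial-like cells, beside 11.6% of all genes. Fibroblast-like cells had 2 of 6, beside 13.9%, macrophage or monocyte-like cells 0 of 6, beside 9.22%, and neutrophil-like cells 1 of 6, beside 22.9%. Blood endothelial-like cells had 4 of 6, beside 13.7%, and pericyte or smooth muscle-like cells 2 of 6, beside 14.2%. In Ctrl-D, epithelial-like cells had 4 of 6, beside 10.3%, and hair matrix-like cells 2 of 6, beside 16.4%. Lower calls were 0 of 6 in 7 pairs, beside 12.6% of all genes in epithelial-like, 6.17% in fibroblast-like, 5.78% in macrophage or monocyte-like, 9.22% in neutrophil-like, 8.02% in blood endothelial-like and 7.55% in pericyte or smooth muscle-like cells of Eed iKO-D and 10.1% in epithelial-like cells of Ctrl-D. Hair matrix-like cells had 1 of 6, beside 8.5%.

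**Figure D2:**
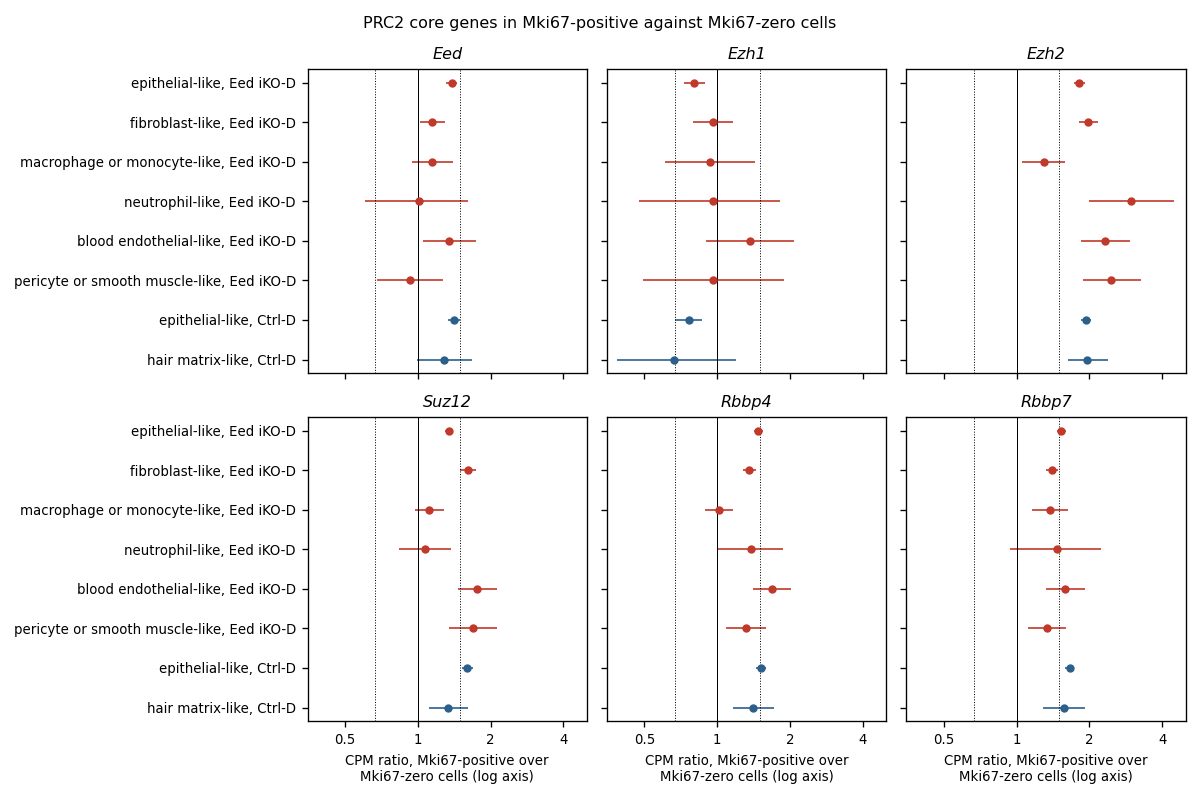
Ratio of each PRC2 core gene in Mki67-positive over Mki67-zero cells (log axis) for the 8 pairs of class and library, with 95% counting intervals and the 1.5-fold limits. Ezh2 lies above the limit in all pairs but macrophage or monocyte-like cells (1.29). Ezh1 lies below 1 in 7 of 8, all but blood endothelial-like cells.

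Mki67-positive cells were deeper, with a median of 43764.5 UMIs against 15780 in Mki67-zero epithelial-like cells of Eed iKO-D, and 21458 against 13648 in those of Ctrl-D. Within 4 quartiles of depth the Ezh2 ratio was 1.00, 1.52, 1.82 and 2.0 from the shallowest to the deepest cells of Eed iKO-D and 1.53, 1.73, 2.17 and 2.42 in Ctrl-D. In the shallowest quartile of Eed iKO-D the interval included 1, at 36.9 CPM in Mki67-positive and 36.7 CPM in Mki67-zero cells (ratio 1.00, 0.697 to 1.43). The part of depth in the result was not tested further. With all cells thinned to 3000 UMIs, Ezh2 was 70.9 CPM in Mki67-positive and 46.5 CPM in Mki67-zero cells of Eed iKO-D, and 139.9 and 70.0 CPM in those of Ctrl-D. Ezh2 was then called higher in 5 of the 8 pairs, with Mki67 status also read from the thinned counts. Among these, neutrophil-like (1.98, 0.738 to 4.55) and blood endothelial-like cells (1.93, 0.851 to 4.13) of Eed iKO-D had intervals that included 1. Ezh2 was no longer called in fibroblast-like cells of Eed iKO-D, at 41.2 CPM in Mki67-positive and 29.9 CPM in Mki67-zero cells (ratio 1.38, 0.862 to 2.12), nor in hair matrix-like cells of Ctrl-D, at 203.9 and 148 CPM (ratio 1.38, 1.01 to 1.87).

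Along the cell's own Mki67 level the members fell into the same pattern. In epithelial-like cells of Eed iKO-D, Ezh2 was 37.6 CPM at 0 Mki67, 56.2 CPM above 0 to 100 Mki67 CPM, 69.2 CPM at 100 to 300 and 80.5 CPM above 300. The same steps of Ctrl-D had 56.4, 78.8, 98.7 and 148 CPM, and neighbouring intervals overlapped in neither library. The steps also differed in depth, with medians of 15780, 52519.5, 28721 and 41395 UMIs in Eed iKO-D. In Ctrl-D these medians were 13648, 23179, 21286 and 20176 UMIs. The part of depth in the steps was not tested. Suz12 was 94.0, 109, 122 and 148 CPM in Eed iKO-D and 51.0, 61.3, 76.0 and 106 CPM in Ctrl-D.

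Eed was 36.7 CPM at 0 Mki67 and 58.7 CPM above 300 in Eed iKO-D, and 43.9 and 67.3 CPM in Ctrl-D, where its upper 2 steps (65.7 and 67.3) overlapped. Rbbp4 reached 95.1 CPM above 300, against 55.8 CPM at 0, in Eed iKO-D, and 110.0 against 59.4 CPM in Ctrl-D. Rbbp7 reached 128 against 70.4 CPM in Eed iKO-D and 139.5 against 70.1 CPM in Ctrl-D. Ezh1 showed no such order. It was 13.4, 11.2, 10.1 and 10.9 CPM in Eed iKO-D and 12.1, 8.99, 8.73 and 10.1 CPM in Ctrl-D, with overlapping intervals among the 3 Mki67-positive steps.

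**Figure D3:**
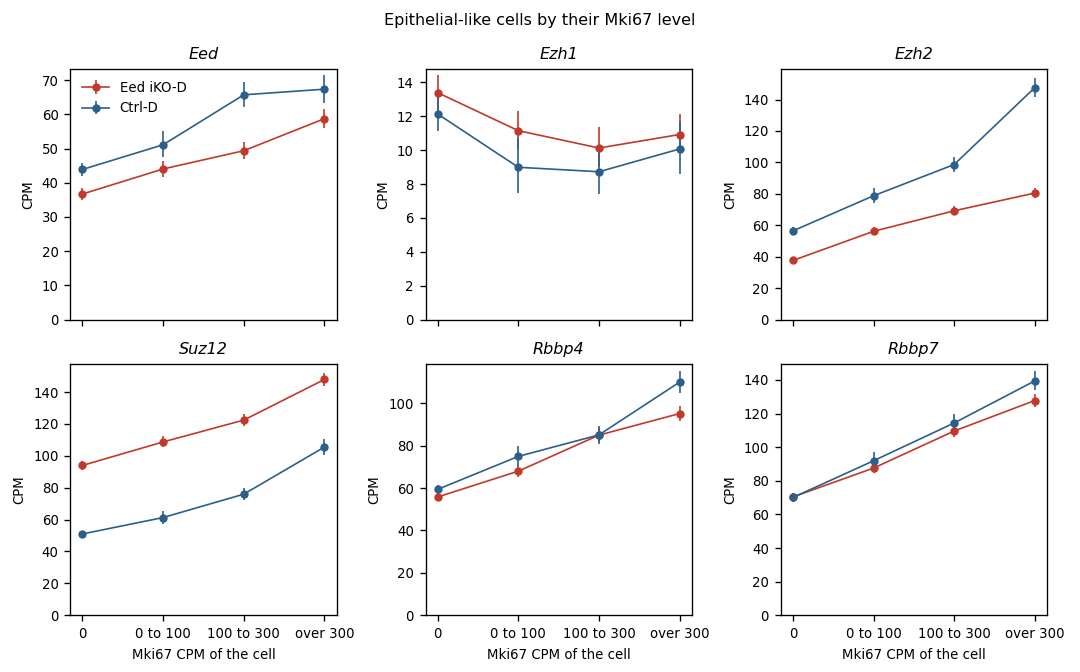
Level of each PRC2 core gene (CPM) in epithelial-like cells of 4 ranges of the cell's Mki67 CPM, for Eed iKO-D and Ctrl-D, with 95% counting intervals. Ezh2 is higher at every step in both libraries (to 80.5 and 148 CPM), and Ezh1 stays between 8.73 and 13.4 CPM. The ranges also differ in the median depth of their cells.

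The Mki67 ratios of the libraries were then set against each other. On the log2 scale, the Mki67 ratio of epithelial-like cells in Eed iKO-D minus that in Ctrl-D was -0.25 (-0.34 to -0.16) for Suz12 and -0.11 (-0.20 to -0.03) for Rbbp7. For Eed, Ezh1, Ezh2 and Rbbp4 the interval of this difference included 0, and for Ezh2 it was -0.09 (-0.19 to 0.01). In basal-like cells alone the Suz12 difference was -0.14 (-0.24 to -0.04) and that of Rbbp7 included 0. With 1 library a group these differences have no replicate check.

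The number of Ezh2 UMIs per Ezh1 UMI sets the alternative catalytic subunits against each other within a class. It was highest in hair matrix-like cells of Ctrl-D, at 15.6 (12.3 to 20.2), and was read only between classes, since the genes may be captured unequally. In epithelial-like cells it was 4.96 (4.71 to 5.23) in Eed iKO-D and 7.85 (7.35 to 8.39) in Ctrl-D. Pericyte or smooth muscle-like cells had 6.67 (4.77 to 9.56), while 3.66 was found in blood endothelial-like and 4.26 in macrophage or monocyte-like cells, all of Eed iKO-D. T cell-like cells had 3.19 (2.05 to 5.11) in Eed iKO-D and 3.07 (2.25 to 4.26) in Ctrl-D, so that their high levels of both genes gave no high ratio. Melanocyte-like cells of Ctrl-D had 2.30 (1.75 to 3.06).

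Fibroblast-like cells had 3.62 (3.29 to 3.99) Ezh2 UMIs per Ezh1 UMI in Eed iKO-D and 1.58 (1.03 to 2.47) in Ctrl-D, and neutrophil-like cells 1.85 (1.32 to 2.62) and 0.571 (0.123 to 2.25), the last on 4 and 7 UMIs. The ratio was higher in Mki67-positive cells of each split class. It was 6.35 in Mki67-positive and 2.81 in Mki67-zero epithelial-like cells of Eed iKO-D, and 11.8 and 4.65 in those of Ctrl-D. Spinous-like cells lay below basal-like cells, at 2.19 against 5.15 in Eed iKO-D and 3.98 against 8.73 in Ctrl-D. Among Mki67-zero cells, spinous-like cells of Eed iKO-D had 1.48 (0.992 to 2.22), the lowest value of the epithelium.

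**Figure D4:**
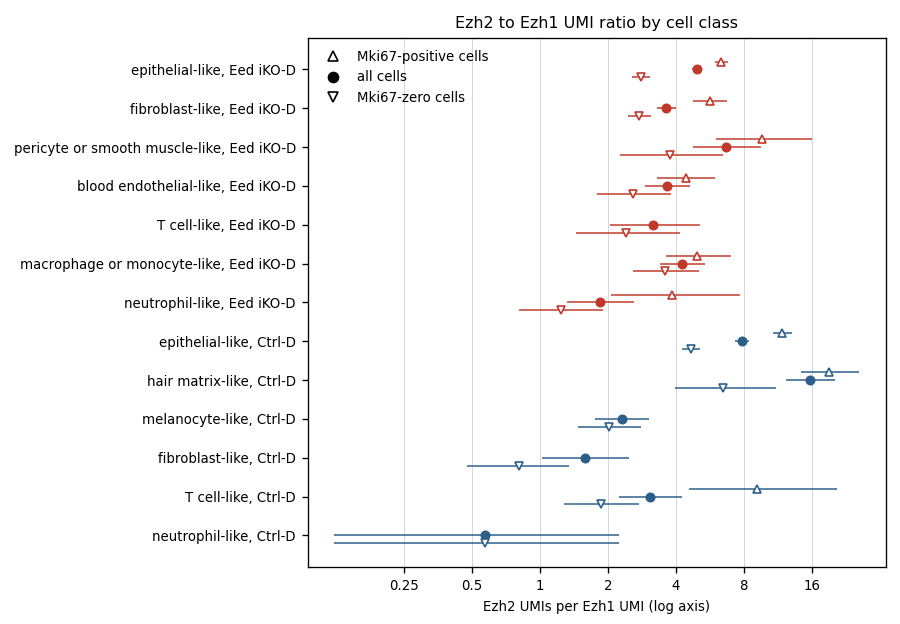
Ezh2 UMIs per Ezh1 UMI (log axis) in each cell class of Eed iKO-D and Ctrl-D, for all cells and for Mki67-positive and Mki67-zero cells, with exact 95% counting intervals. Hair matrix-like cells are highest at 15.6, and Mki67-zero values lie below Mki67-positive ones in each class shown with both.

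Between the libraries, Eed itself was examined first, as the deleted gene. It was 45.8 CPM in epithelial-like cells of Eed iKO-D and 53.2 CPM in those of Ctrl-D, a ratio of 0.862 (0.830 to 0.894). Fibroblast-like cells, where the keratin 14 promoter is not expected to drive Cre, had 22.2 CPM in Eed iKO-D and 24.9 CPM in Ctrl-D, a ratio of 0.895 (0.688 to 1.19). Which exons were floxed is not given in the sources used here, and reads from the 3' end are counted also where an upstream exon is lost, so the level says little about the deletion.

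In epithelial-like cells 1 of 6 members, Suz12, was called higher in Eed iKO-D, beside 41.1% of all genes, and 0 of 6 lower, beside 15.2%. Suz12 was 115 CPM in Eed iKO-D and 66.7 CPM in Ctrl-D, a ratio of 1.73 (1.68 to 1.78), and Ezh2 was 57.8 and 83.6 CPM, a ratio of 0.692 (0.671 to 0.714). Ezh1 (1.09), Rbbp4 (0.972) and Rbbp7 (1.01) lay near 1. The median of all genes was 0.39 higher in Eed iKO-D on the log2 scale. Relative to it Suz12 was at 0.39 and not called, while Ezh2 at -0.93 and Eed at -0.61 were called lower. Ezh2 was also called lower with totals that left out mitochondrial, ribosomal protein, haemoglobin and Gm42418 UMIs (log2 -0.63), of which Gm42418 took a median of 6.28% in epithelial-like cells of Eed iKO-D and 0.312% in those of Ctrl-D.

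Within Mki67-positive epithelial-like cells Ezh2 was 68.4 CPM in Eed iKO-D and 109 CPM in Ctrl-D (ratio 0.626, 0.604 to 0.649), and within Mki67-zero cells 37.6 and 56.4 CPM (ratio 0.667, 0.628 to 0.708). The lower Ezh2 level was therefore present in both parts, and in basal-like (59.4 and 90.2 CPM, ratio 0.659) and spinous-like cells (24.5 and 37.3 CPM, ratio 0.657). Suz12 was 126 and 81.6 CPM in Mki67-positive cells (1.55) and 94.0 and 51.0 CPM in Mki67-zero cells (1.84), and reached 83.6 and 42.5 CPM in spinous-like cells (1.96). Different clusters held most epithelial-like cells of each library. Cluster 3 held 1519 Eed iKO-D and 107 Ctrl-D cells, and cluster 2 held 99 and 2270, while clusters 8 (508 and 247) and 1 (359 and 201) were shared more evenly.

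The libraries were therefore also compared within the 5 clusters that held at least 50 epithelial-like cells of each, a comparison added after the data were seen. Ezh2 was lower in Eed iKO-D in clusters 1, 2 and 11, with values in Eed iKO-D and Ctrl-D of 77.0 and 95.1 CPM (ratio 0.810, 0.708 to 0.929), 68.5 and 87.7 CPM (0.782, 0.670 to 0.906) and 93.8 and 129 CPM (0.729, 0.595 to 0.886), none of them by 1.5-fold. In clusters 3 and 8 it was 62.2 and 61.5 CPM (1.01, 0.872 to 1.18) and 34.0 and 31.2 CPM (1.09, 0.938 to 1.27). The Ezh2 difference thus kept its direction in 3 of 5 clusters. Clusters 1, 2 and 11 held 344, 98 and 64 epithelial-like cells of Eed iKO-D, and clusters 3 and 8 held 1409 and 474. In Ctrl-D they held 176, 2253 and 1054, and 100 and 230. Suz12 was between 1.14 and 2.48 times its Ctrl-D level in all 5, highest in cluster 8 (115 and 46.3 CPM) and lowest in cluster 11, where the interval of 0.937 to 1.38 included 1 and Suz12 lay at the median of all genes. Ezh1 ranged from 0.934 in cluster 3 to 2.41 (1.72 to 3.46) in cluster 8, where it rested on 275 and 39 UMIs. Its interval also lay above 1 in clusters 1 (1.39 to 3.34) and 2 (1.20 to 2.35), and included 1 in clusters 3 and 11. Eed ranged from 0.818 to 1.15. The clusters were made from the same cells and genes, and relative to the median of all genes in each cluster Ezh2 was lower by 0.35 to 0.64 on the log2 scale.

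The difference between the libraries moved with the length of the gene over all genes. In 5 groups of equal number by locus length, with median lengths of 3.34, 10.2, 21.2, 42.7 and 124 kb, the median log2 ratio of Eed iKO-D over Ctrl-D was -0.06, 0.18, 0.32, 0.53 and 0.80. Ezh1, Ezh2 and Suz12 (35.3, 65.2 and 41.0 kb) fell in the group around 42.7 kb, and Eed, Rbbp4 and Rbbp7 (26.3, 28.3 and 18.7 kb) in that around 21.2 kb. Relative to the median of its own length group, Suz12 was 0.26 higher, whereas Ezh2 was at -1.06, Eed at -0.54, Ezh1 at -0.40, Rbbp4 at -0.36 and Rbbp7 at -0.30. The nuclear RNA Neat1 was 1497 CPM in Eed iKO-D and 415 CPM in Ctrl-D, and Malat1 8049 and 6537 CPM. The part of length and of nuclear RNA in the members' ratios was not tested.

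**Figure D5:**
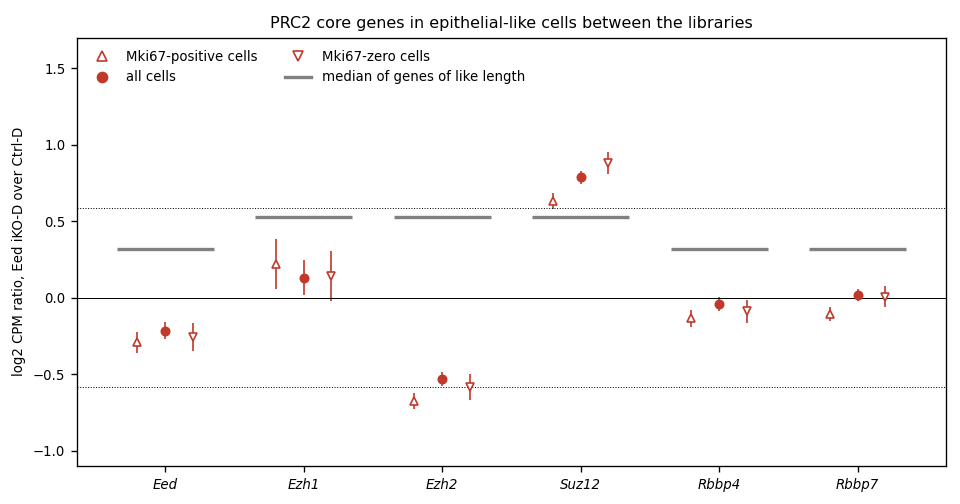
Log2 CPM ratio of Eed iKO-D over Ctrl-D for each PRC2 core gene in epithelial-like cells, for Mki67-positive, all and Mki67-zero cells, with 95% counting intervals, dotted lines at the 1.5-fold limits and grey bars at the median of genes of like length. Suz12 lies above its grey bar (0.26 higher over all cells), while the other 5 genes lie below theirs, Ezh2 the farthest at -1.06.

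In fibroblast-like cells 1 of 6 members, Ezh1, was called lower in Eed iKO-D, beside 24.3% of all genes, and 0 of 6 higher, beside 26.1%. Ezh1 was 9.34 CPM in Eed iKO-D (538 UMIs) and 15.4 CPM in Ctrl-D (36 UMIs), a ratio of 0.606 (0.432 to 0.874), and it was not called with a gate 2 times stricter. Ezh2 was 33.8 and 24.4 CPM (1.39, 1.06 to 1.84) and Suz12 48.5 and 36.4 CPM (1.33, 1.07 to 1.67). With cells thinned to 3000 UMIs, on 9 to 22 UMIs in Ctrl-D, Ezh2 was 30.9 and 13.2 CPM (2.35, 1.21 to 5.21), Suz12 47.9 and 27.8 CPM (1.72, 1.08 to 2.90), Eed 19.3 and 32.2 CPM (0.60, 0.379 to 0.992) and Ezh1 9.26 and 19.0 CPM (0.487, 0.265 to 0.968), all past 1.5-fold. Mki67-positive cells made up 25.2% of fibroblast-like cells in Eed iKO-D and 7.23% in Ctrl-D, at median depths of 24743.5 and 8262 UMIs. With cells thinned to 3000 UMIs the shares were 8.99% (7.81 to 10.3) and 3.51% (1.53 to 6.80). In neutrophil-like cells 1 of 6 members was called higher, beside 38.4% of all genes, and 2 of 6 lower, beside 23.9%, on 1 to 11 UMIs a member in Ctrl-D. Of these, Rbbp7 (103 UMIs in Eed iKO-D and 1 in Ctrl-D, ratio 4.68, 0.821 to 187) and Eed (98 and 8 UMIs, 0.556, 0.272 to 1.33) had intervals that included 1, and Ezh1 (55 and 7 UMIs) was at 0.357 (0.162 to 0.929).

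The other lists of chromatin and cell cycle genes show where the core members lie among them in the Mki67 split of epithelial-like cells. Their genes were chosen with earlier results of these data known, and the counts are a description. The median log2 ratio of Mki67-positive over Mki67-zero cells was 0.51 for the 6 core members in Eed iKO-D and 0.64 in Ctrl-D, and 0.03 and 0.05 for all genes tested. Of all genes tested, 11.6% were called higher in Eed iKO-D and 10.3% in Ctrl-D, and 12.6% and 10.1% were called lower. Low counts in a short list lie near these shares. Of 20 E2F and DNA replication genes, 18 were called higher in Eed iKO-D and 19 in Ctrl-D, with medians of 1.45 and 1.17. Mcm5, a subunit of the replicative helicase, had ratios of 3.72 and 2.82, and Pcna, the sliding clamp, 2.01 and 2.0. Uhrf1, which guides maintenance of DNA methylation, had 4.58 and 3.92, and the methyltransferase Dnmt1 2.33 and 2.26. All 15 G2 and mitosis genes were called higher in both libraries, with medians of 3.67 and 4.37, which follows in part from the choice of Mki67 for the split.

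RBBP4 and RBBP7 also belong to other complexes, whose genes were counted in the same split. Of 6 genes of CAF-1 and other histone chaperones, 5 were called higher in each library, among them Chaf1a, the large subunit of CAF-1, at 3.54 in Eed iKO-D and 2.80 in Ctrl-D, and Chaf1b at 2.72 and 2.66. None of 11 NuRD genes was called, with Hdac1 at 1.33 and 1.48, Hdac2 at 1.36 and 1.21, Chd4 at 1.254 and 1.244 and Mta2 at 1.19 and 1.14. SIN3 genes were called higher in 1 of 8 and 2 of 8, and MuvB genes in 2 of 4 and 3 of 4, with Lin9 at 2.55 and 2.07. NURF genes gave 1 of 3 higher and 1 of 3 lower in each library.

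Of 8 measured PRC2 accessory genes, 2 were called higher in Mki67-positive cells of Eed iKO-D and 1 in Ctrl-D. Phf19 was at 4.28 on 41 and 5 UMIs in Eed iKO-D and at 3.44 on 51 and 14 UMIs in Ctrl-D, whereas Jarid2 (0.874 and 0.940), Aebp2 (1.05 and 1.16) and Mtf2 (1.21 and 1.23) were not called. None of 16 genes of PRC1, another Polycomb complex, some forms of which bind the PRC2 mark, was called higher, and 1 was called lower in Eed iKO-D. Rnf2, its catalytic ring protein, was at 1.03 and 1.06 and Bmi1 at 1.27 and 1.28. Neither H3K27 demethylase was called, with Kdm6a at 0.937 and 1.01 and Kdm6b at 1.06 and 0.943. Of 11 H3K9 and H3K4 methyltransferases, 2 were called higher in each library.

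Genes whose profile was most like each member's were sought over the 12 profiles of class and library with at least 100 cells, by Pearson's r of log2(CPM + 5) among 8279 genes. The profiles share 2 libraries and differ in depth, so the values are a description. Nearest were Dnajc8 (0.975) for Eed, Zfp949 (0.906) for Ezh1, Ints7 (0.965) for Ezh2, Wdr20 (0.916) for Suz12, Matr3 (0.942) for Rbbp4 and Cbx5 (0.989) for Rbbp7. The next in order were Rab3ip and Dbr1 for Eed, Ggps1 and Fbxl12 for Ezh1, Prcc and Rpa2 for Ezh2, Rbm25 and Strn for Suz12, Brca1 and Cep57 for Rbbp4, and Smarcb1 and Cfdp1 for Rbbp7. Among the members, Ezh2 was closest to Rbbp4 (0.890) and Eed (0.797), followed by Suz12 (0.754) and Rbbp7 (0.696), and its r with Ezh1 was 0.03. Against Mki67, r was 0.744 for Ezh2, 0.724 for Suz12, 0.673 for Rbbp4, 0.548 for Eed, 0.503 for Rbbp7 and -0.43 for Ezh1.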

How the data were processed

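Single-cell RNA from 1 library per group was measured with the 10x Genomics Chromium 3' assay on tumours digested with collagenase, DNase and trypsin and passed through dead cell removal, per the labels' protocols. The deposited values are raw UMI counts for every gene in each barcode, made with Cell Ranger. Its version is 8.0 in the submitters' processing notes, which also name mm10, 7.1.0 in the file headers and 2.1.0 in the labels' protocols. How the caller chose barcodes is not given in the sources used here.

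Cells needed at least 500 genes, at most 15% mitochondrial UMIs and at most 30% of UMIs in Gm42418. Scrublet (in scanpy 1.11.5, expected rate 0.08) marked 0 of 9506 cells in Eed iKO-D, where the caller failed and doublets stayed in, and 124 of 7518 in Ctrl-D, all taken out. Classes came from gates on the share of UMIs in marker lists (epithelial-like at least 1%, fibroblast-like 1.5%, neutrophil-like 1%, T cell-like 0.1%, hair matrix-like 0.05%, with at least 2 or 3 markers detected). A lead of 2 times over the next list was required, and classes other than epithelial-like had at most 1% of UMIs in the epithelial list. Cells that met no gate (659 in Eed iKO-D, 857 in Ctrl-D) or several (742 and 87) were left out. The gate values and the Gm42418 limit were set after the data were seen, and members and lists were chosen with earlier results of these data known. Leiden clusters (resolution 1, 2000 variable genes, 30 components, 15 neighbours, leidenalg 0.10.2) served as an alternative and for the comparison within clusters.

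UMIs were summed per library, class and Mki67 status (at least 1 UMI or none) and given as CPM with exact Poisson intervals, and ratios with exact conditional binomial intervals, at 95%. UMIs count molecules of the sampled cells, and the intervals cover counting error only. Genes needed 20 UMIs over both parts, 0.5 UMI was added for log2 ratios, and a gene was called at 1.5-fold. Libraries were compared in classes of at least 100 cells in each, levels given for classes of at least 50. The spinous-like and hair matrix-like comparisons were added after the data were seen. Named genes were the 6 members, a fixed set from each list, and the 3 genes most like each member among those with 20 UMIs in 75% of profiles. Neat1, Malat1, Gm42418, Gm45120, Sync and Txlng were added after their values or positions were seen. Lengths came from GENCODE vM21, in which 99.6% of features were found. The calculation was run on simulated Poisson counts, which hold no spread between cells or libraries. That run therefore covers counting error only, and in it 4.13% to 4.68% of unchanged genes were called. Python 3.11.15, numpy 2.4.6, scipy 1.17.1 and pandas 2.3.3 were used.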

Additional observations from a re-analysis of the deposited data

Results flagged for a closer look

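The ratio of Eed iKO-D over Ctrl-D had intervals on different sides of 1 in different classes for both catalytic subunits. For Ezh1 it was 1.09 in epithelial-like cells, which is not called, 0.606 in fibroblast-like and 0.357 in neutrophil-like cells, the last on 55 and 7 UMIs. The epithelial-like direction of Ezh1 turned with the scaling. It was at -0.26 on the log2 scale relative to the median of all genes. In thinned cells it was 10.3 against 12.3 CPM (0.839, 0.657 to 1.07), so that Ezh1 was then lower in each class with a value. Within single clusters of epithelial-like cells the direction differed. Relative to the median of all genes in each cluster, Ezh1 was at 0.97, 0.51, 0.74 and 0.17 in clusters 1, 2, 8 and 11. In cluster 3 it was at -0.49. For Ezh2 the ratio of Eed iKO-D over Ctrl-D was 1.39 in fibroblast-like and 0.692 in epithelial-like cells, with intervals on opposite sides of 1. With 1 library per group the differences between classes were not tested, and Mki67-positive cells made up 25.2% of fibroblast-like cells in Eed iKO-D and 7.23% in Ctrl-D.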

How the results depend on the processing

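With 1 library per group no replicate could be left out, and no difference between the libraries has a measure of the spread between animals. No paired analysis was possible because each group had 1 library, both numbered 1. Of the alternatives none reversed a called ratio. Counts stayed within 1.5 times in 349 of the 435 comparisons of a count with its alternative, and single ratios within their counting interval in 1176 of 1356. The 25% limit called genes whose values differed by at least 25%. For each count outside 1.5 times the cause was not tested, beyond what fewer genes, fewer cells or another limit give by construction. The log2 ratio of Ezh2 between the libraries in epithelial-like cells ranged from -0.93 to 0.12 over 21 settings, of which 5 compare the libraries within single Leiden clusters, that of Suz12 from 0.19 to 1.31, and the Mki67 ratio of Ezh2 from 0.61 to 0.95 in Eed iKO-D and 0.82 to 1.11 in Ctrl-D over 18. The order of classes kept at least 112 of 126 class pairs in Eed iKO-D and 82 of 90 in Ctrl-D, and that of Ezh2 per Ezh1 27 of 36, the last with at most 10% Gm42418 UMIs. Depth limits neutrophil-like cells of Ctrl-D most, with 1 to 11 UMIs a member.

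Members called between the libraries changed as follows. In epithelial-like cells (1 higher, 0 lower), centring on the median of all genes gave 0 higher and 2 lower. The count lower was 1 with totals without mitochondrial, ribosomal protein, haemoglobin and Gm42418 UMIs, with cells weighted equally, with cells thinned to 3000 UMIs, at the 25% limit and with no limit on Gm42418 UMIs, and the count higher was 0 at 2-fold. In fibroblast-like cells (0 higher, 1 lower), the count higher was 1 without the 5% deepest cells, with cells weighted equally and in Mki67-zero cells, and 2 with Leiden clusters, with thinned cells and at the 25% limit. The count lower was 0 with gates 2 times stricter and at 2-fold, and 2 with thinned cells. In neutrophil-like cells (1 higher, 2 lower), the count higher was 2 with Leiden clusters, with the reduced totals and at the 25% limit, and the count lower was 1 with at least 100 UMIs and at 2-fold.

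Of the 8 pairs split by Mki67, Ezh2 (7) was called in 3 at 2-fold, and Suz12 (4) in 0. Rbbp7 (4) was called in 2 with the reduced totals and with centring, 8 at the 25% limit and 0 at 2-fold. Rbbp4 (2) was called in 1 with centring, 0 with cells weighted equally, with thinned cells and at 2-fold, 7 at the 25% limit and 5 with at least 2 Mki67 UMIs. Eed (0) was called in 1 with gates 2 times stricter and with at least 2 Mki67 UMIs, 3 with thinned cells and 4 at the 25% limit. Ezh1 (0) was called in 1 without the 5% deepest cells, with stricter gates, with cells weighted equally and at the 25% limit. Calls lower in Mki67-positive cells (1) were 0 with doublets kept, with Leiden clusters, with cells weighted equally, with at least 100 UMIs, with at least 2 Mki67 UMIs and at 2-fold, and 2 with thinned cells and at the 25% limit. Splits by over 1% of UMIs in the cycle lists, and by Mki67 at 10% Gm42418 UMIs, left too few cells in some pairs for these counts and gave no value.

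All genes called moved with the limits. Between epithelial-like cells of the libraries, 8071 were higher and 2978 lower, against 5364 and 5102 with centring, 12217 and 4684 with no filter on low counts, and 5256 and 1623 at 2-fold, with 4698 higher in thinned cells. In fibroblast-like cells 4378 were higher and 4078 lower, against 2823 higher with at least 100 UMIs, 10158 lower with no filter, and 2676 and 1937 at 2-fold. In neutrophil-like cells 3604 were higher and 2239 lower, against 1287 and 1008 with at least 100 UMIs, 2368 and 3847 with free RNA subtracted, and 1447 lower with the reduced totals, 9162 with no filter and 1239 at 2-fold. In the Mki67 split of epithelial-like cells of Eed iKO-D, 2171 were higher and 2352 lower, against 1167 and 1112 in thinned cells, 4787 and 5183 with no filter, 1365 and 1386 with at least 100 UMIs, 4513 and 4216 at the 25% limit and 961 and 952 at 2-fold. In Ctrl-D, 1651 were higher and 1622 lower, against 4483 and 4139 with no filter, 1012 and 917 with at least 100 UMIs, 3454 and 3002 at the 25% limit and 738 and 723 at 2-fold. The settings of 10% and of no limit on Gm42418 and the comparison within clusters were chosen after the data were seen.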
